A study of Mus musculus with 8 samples.

Results

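The genes described here encode the core of the actin turnover cycle. They are the cytoplasmic actins Actb and Actg1, the filament-severing proteins Cfl1 (cofilin-1), Cfl2 (cofilin-2) and Dstn (destrin), their cofactor Wdr1, and the monomer-binding proteins Pfn1, Tmsb4x, Tmsb10 and Cap1. These 10 genes were taken by symbol from the 55401 genes in each table of transcript abundance, and the set was chosen by function around Cfl1, which was selected on the p-value of its difference between conditions, among the smallest of all genes. The comparison of conditions therefore helped to choose the set, so its values for these genes are a description. The standard errors and intervals show the spread between dishes, drawn toward that of other tested genes of like level. The p-value of Cfl1 is given as the value it was selected on, not as a test.

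The RNA came from AML12 cells, a mouse hepatocyte line established from an animal carrying a human TGF-alpha transgene and grown here with serum, dexamethasone and an insulin, transferrin and selenite supplement. In the Opti-ELF-WMF group, 4 dishes were exposed for 1 h to magnetic pulses of 100 mG (10 µT), each 4 ms long, delivered at 1 to 8 Hz in a repeating cycle of rising frequency, with copper plates around the dishes of either group to damp stray fields. The control group, also 4 dishes, came from the same batch of cultured cells and stood in a separate, matching incubator with the stimulator off, so the field and the incubator cannot be told apart. Because all dishes shared a batch, the spread between dishes may be partly technical.

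Actin exists as monomers and as filaments that grow at one end and shorten at the other. Profilin loads monomers onto growing ends, thymosins hold monomers in reserve, cofilin and destrin cut and disassemble old filaments, Wdr1 speeds that disassembly, and Cap1 helps return monomers to the pool. LIM kinases switch cofilin off by phosphorylating a serine at its start (codon 3), and Slingshot phosphatases reverse this. In hepatocytes, actin lines the cell cortex and the bile canaliculi. Free actin monomers also hold the coactivators of serum response factor (SRF) in the cytoplasm, and SRF drives actin genes through a DNA element called the CArG box.

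The coding sequences show how closely the family members resemble one another, which matters for assigning reads to them. The first 30 coding bases (GENCODE M21, 5′ to 3′) are shown for the cofilin family, with the codon of the regulatory serine in capitals, and for both actins, in which nothing is capitalised.
Cfl1: atggccTCTggtgtggctgtctctgatggt
Cfl2: atggcaTCTggagttacagtgaatgatgaa
Dstn: atggccTCAggagttcaggttgcggatgaa
Actb: atggatgacgatatcgctgcgctggtcgtc
Actg1: atggaagaagaaatcgccgcactcgtcatt
Over the aligned coding bases, Cfl1 was 71.5% identical to Cfl2 (358 of 501 bases) and 68.5% identical to Dstn (341 of 498 bases). The actins were closer, with 1000 of 1128 coding bases identical (88.7%). Most of the 10 genes had no near-identical transcript elsewhere, defined as at least 95% identity over at least 80% of the copy. Cfl1 had 1 (Gm6180, a processed pseudogene on chromosome 8, mean 5.41 TPM), and the copies of Actg1 and of Tmsb10 summed to 15.3 and 17.5 TPM. Each sum was under 1% of the gene it resembled.

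Promoter sequence is shown for Cfl1, the gene around which the set was drawn up, and for Actg1, the gene in which a CArG box was found. Both stretches run from 250 to 51 bases before the RefSeq transcript start on GRCm38.p6, 5′ to 3′ on the gene's strand, with the CArG box in capitals. The Cfl1 stretch lies at chr19:5490205-5490404 on the plus strand and the Actg1 stretch at chr11:120348546-120348745 on the minus strand.
Cfl1: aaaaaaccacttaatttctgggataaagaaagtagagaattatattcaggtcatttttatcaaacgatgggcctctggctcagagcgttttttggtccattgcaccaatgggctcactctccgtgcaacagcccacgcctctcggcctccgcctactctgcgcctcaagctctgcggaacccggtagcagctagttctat
Actg1: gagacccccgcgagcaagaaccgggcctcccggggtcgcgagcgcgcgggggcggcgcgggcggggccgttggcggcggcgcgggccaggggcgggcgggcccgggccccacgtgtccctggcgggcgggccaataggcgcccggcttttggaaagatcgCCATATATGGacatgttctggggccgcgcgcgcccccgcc
The 250 bases before the start were searched on both strands for 4 motifs in the 9 genes with an entry, all but Actb. A CArG box was found in 1 gene, Actg1, beginning 90 bases before the start, and in 1.47% of 32851 mouse promoters of that length. GGGCGG was found in 7 of the 9 genes and 32.7% of promoters, CCAAT in 4 and 33.8%, and TATAAA in 0 and 12.4%. These are letter matches only, and each motif was counted separately, also where matches overlapped.

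Abundance is given in TPM, a length-normalised share of all transcripts in a dish, so levels can be compared between genes. Read depth is not kept in TPM, so neither the depth nor the counting error of a value is known, and no detection limit is given. Between 19386 and 20114 genes were above 0 in each dish. All 8 hepatocyte markers were present, led by Krt8 and Krt18, while Alb lay between 46.1 and 58.2 TPM. None of the 6 fibroblast and 4 endothelial markers reached a mean of 1 TPM. Of the muscle markers only Tnnt2, and of the leukocyte markers only Cd14 and Cd68, did so, but their levels were not low. The summed muscle list ran from 66.6 to 72.1 TPM in control and from 66.25 to 81.9 TPM in exposed dishes. The summed leukocyte list ran from 140 to 151 and from 145 to 156 TPM, and both sums lay above Alb. The summed level of each of these 4 lists overlapped between conditions. The summed level of the hepatocyte markers did not overlap, with 5585 to 5849 TPM in control dishes and 5935 to 6155 TPM in exposed dishes, but this sum is mostly the epithelial keratins Krt8 and Krt18. By log2 difference 5 of the 8 markers were higher and 3 lower. The 3 lower were the genes of secreted liver proteins Alb (-0.15), Apoa1 (-0.22) and Ttr (-0.04), each overlapping between conditions. The part of these markers in the results was not tested. Transcripts of the mitochondrial genome averaged 8.94% ± 0.34 of TPM (SD, n = 4) without the field and 7.04% ± 0.76 (SD, n = 4) with it. TPM has a fixed total, so a lower share for these leaves a higher share for other genes, and fewer transcripts of one kind cannot be told apart from more of another.

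All 10 genes were expressed, and together they made up 1.19% ± 0.01 (SD, n = 4) of control TPM and 1.26% ± 0.03 (SD, n = 4) of exposed TPM. Actb was the most abundant, with a mean of 2743 TPM over the 8 dishes, the 28th highest of 12122 tested genes. Cfl1 followed at 2272 TPM, then Tmsb10 at 2008, Actg1 at 1953 and Pfn1 at 1750 TPM. A lower tier held Tmsb4x at 632 TPM, Dstn at 453, Cap1 at 195, Wdr1 at 179 and Cfl2 at 72.1 TPM. Most neighbours in this order were separated in all 8 dishes. The exceptions, overlapping over the 8 dishes, were Cfl1 with Tmsb10, Tmsb10 with Actg1, and Cap1 with Wdr1.

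Each family was carried by 1 or 2 members. Actb made up 58.0% ± 0.3 (SD, n = 4) of the Actb and Actg1 transcripts in control dishes. The muscle actins were near absent, with Acta1 at 0.16 to 0.62 TPM, Acta2 at 0.05 to 0.35 TPM and Actc1 and Actg2 lower still, and the actin-like Actbl2 did not exceed 0.04 TPM. Cfl1 made up 80.8% ± 0.4 (SD, n = 4) of the cofilin family in control dishes, Dstn 16.5% ± 0.3 and Cfl2, the form enriched in muscle, 2.67% ± 0.11. Pfn2, the profilin best known from neurons, averaged 1.42 TPM in control and 1.44 TPM in exposed dishes against 1726 and 1773 TPM for Pfn1. Cap2, known from striated muscle, did not exceed 0.02 TPM, Pfn4 did not exceed 0.24 TPM, and Pfn3 and Tmsb15a were listed at 0 in every dish. Of the remaining thymosin paralogs, Tmsb15b2 ran from 0 to 5.07 TPM, Tmsb15l from 0.46 to 1.86 TPM and Tmsb15b1 from 0 to 1.55 TPM. Of the 13 paralogs, 4 passed the filter on low values (at least 1 TPM in at least 4 dishes). None of these 4 had an adjusted p-value under 0.05 (limma, a linear model fitted to log2(TPM + 1) of all genes) or an unadjusted one.

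Differences between conditions were small in size and mostly toward higher levels in exposed dishes. On the log2(TPM + 1) scale, 9 of the 10 genes were higher and 1, Tmsb4x, was lower, with a median difference of 0.08, where the median over all 12122 tested genes was 0.03. In 5 genes, Cfl1, Actb, Dstn, Wdr1 and Actg1, every exposed dish lay above every control dish. Of all tested genes, 9.87% had dishes that did not overlap, 8.01% with the exposed dishes higher, and among the 1628 tested genes with a mean of at least 100 TPM the latter share was 25.9%. A log2 difference above 0 was found in 63.7% of tested genes and in 86.6% of those with at least 100 TPM, and the 9 of 10 found here is close to the latter share. By limma, 0 of the tested genes (0%) passed an adjusted p of 0.05, while 1894 (15.6%) had an unadjusted p under 0.05. Higher genes with an unadjusted p under 0.05 made up 38.2% of the genes with at least 100 TPM.

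**Figure D1:**
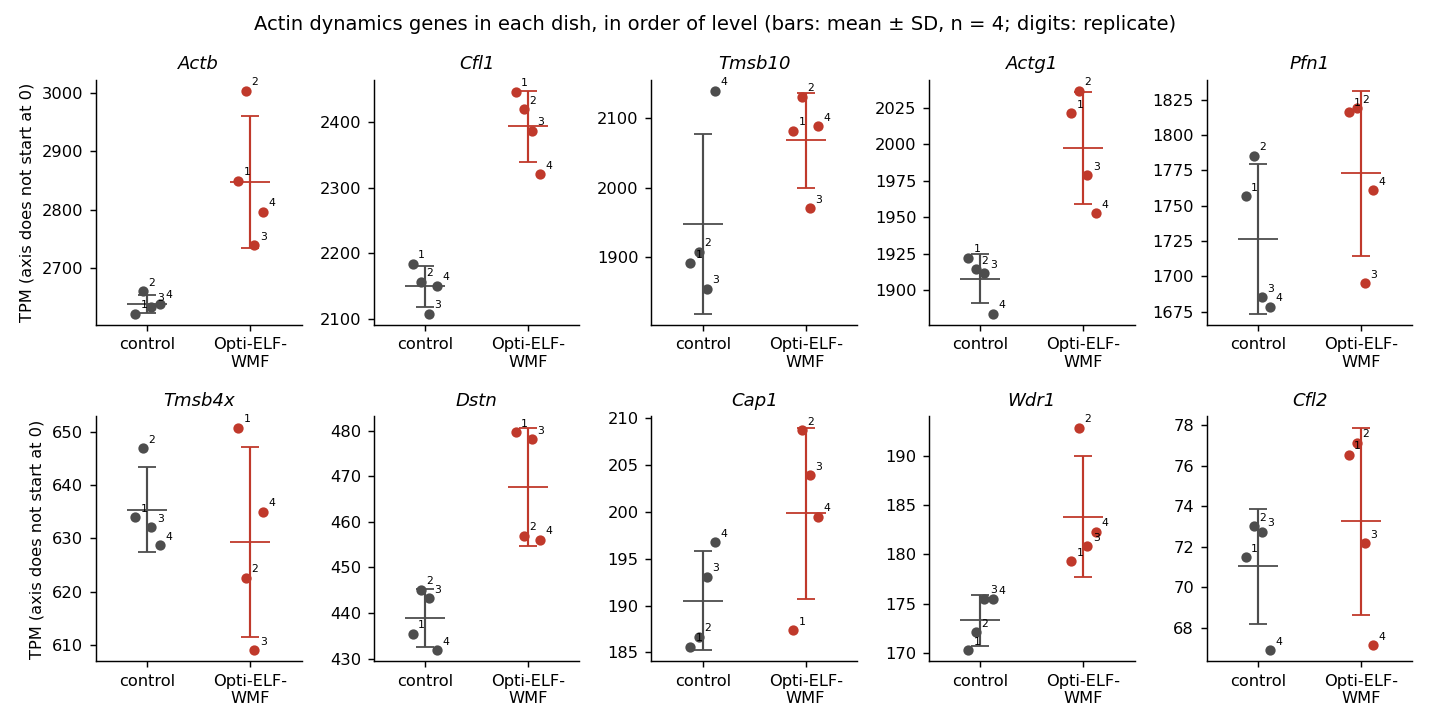
TPM of the 10 genes in each dish (points, numbered by replicate), with the mean and SD of 4 dishes per condition, in order of level. The exposed dishes lie wholly above the control dishes for Actb, Cfl1, Actg1, Dstn and Wdr1, and overlap them in the other 5 genes. Vertical axes differ and do not start at 0.

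Cfl1, on chromosome 19 from 5490455 to 5495201 (GRCm38, plus strand), severs filaments and supplies monomers. It stood at 2184, 2157, 2108 and 2151 TPM in control dishes 1 to 4 and at 2446, 2419, 2387 and 2320 TPM in exposed dishes 1 to 4. Even the lowest exposed dish, number 4, stood well above the highest control dish, number 1. The mean went from 2150 ± 31 (SD, n = 4) to 2393 ± 54 TPM (SD, n = 4), or 11.3% more. The log2 difference was 0.15 (standard error 0.02, 95% interval 0.10 to 0.21). This is the value that led to the choice of the set: its p-value was 8.56e-05, the 4th smallest of all tested genes and the 2nd smallest among those higher, with an adjusted p of 0.122 by limma.

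Dstn, on chromosome 2 from 143915320 to 143943324, encodes a close relative of cofilin that likewise severs and depolymerises filaments. Control dishes held 435, 445, 443 and 432 TPM and exposed dishes 480, 457, 478 and 456 TPM. Exposed dishes 1 and 3 were the higher ones, in contrast to Cfl1, in which dishes 1 and 2 were. The log2 difference was 0.09 (95% interval 0.03 to 0.15). Cfl2, on chromosome 12 from 54858809 to 54862877, stood at 71.5, 73.0, 72.7 and 66.9 TPM in control dishes and 76.5, 77.1, 72.2 and 67.2 TPM in exposed dishes. The conditions overlapped, with replicate 4 the lowest in each, and the log2 difference of 0.04 had an interval from -0.07 to 0.15. Wdr1, on chromosome 5 from 38526813 to 38563221, encodes the WD-repeat cofactor of cofilin. Its control dishes held 170, 172, 175 and 175 TPM and its exposed dishes 179, 193, 181 and 182 TPM, a log2 difference of 0.08 (0.02 to 0.15). Exposed dish 2 stood highest, and the closest dishes of the 2 conditions were 175 and 179 TPM.

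Both actins lay higher in exposed dishes, Actb by more than Actg1. Actb, on chromosome 5 from 142903115 to 142906754, held 2621, 2659, 2633 and 2638 TPM in control dishes and 2849, 3004, 2739 and 2797 TPM in exposed dishes. Its control dishes were the tightest of the 10 genes, with a coefficient of variation of 0.61%, against 4.0% in exposed dishes. The log2 difference of Actb was 0.11 (0.04 to 0.17). Actg1, on chromosome 11 from 120345690 to 120348542, held 1922, 1914, 1912 and 1884 TPM in control dishes and 2021, 2036, 1979 and 1953 TPM in exposed dishes, a log2 difference of 0.07 (0.02 to 0.11). Exposed dish 2 was again the highest of its group for both.

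The monomer-binding genes overlapped between conditions. Pfn1, on chromosome 11 from 70651850 to 70654644, encodes the profilin that carries monomers to growing ends. It held 1757, 1785, 1685 and 1679 TPM in control dishes and 1817, 1819, 1695 and 1761 TPM in exposed dishes, with a log2 difference of 0.04 (-0.03 to 0.11). Replicates 1 and 2 were the higher pair in each condition. Tmsb4x, on chromosome X from 167207093 to 167209315, encodes the monomer-sequestering thymosin beta 4. It held 634, 647, 632 and 629 TPM in control dishes and 651, 623, 609 and 635 TPM in exposed dishes, and its log2 difference of -0.01 (-0.07 to 0.04) was the one below 0, although without exposed dish 3 it was 0.0015. Its exposed dishes lay on both sides of its control dishes. Tmsb10, on chromosome 6 from 72957347 to 72958748, encodes the related thymosin beta 10. It held 1891, 1908, 1855 and 2139 TPM in control dishes and 2082, 2131, 1971 and 2089 TPM in exposed dishes. Control dish 4 was the highest of all 8 dishes for this gene. The log2 difference of Tmsb10 was 0.09 (-0.01 to 0.19), and without control dish 4 it was 0.13 with no overlap. Cap1, on chromosome 4 from 122859047 to 122886056, encodes a protein that recycles monomers together with cofilin. It held 186, 187, 193 and 197 TPM in control dishes and 187, 209, 204 and 199 TPM in exposed dishes, with a log2 difference of 0.07 (-0.01 to 0.15). Exposed dish 1 lay among the control dishes, and the other 3 lay above them.

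The dishes differed among themselves. Exposed dish 2 was the highest of its condition in 7 of the 10 genes and the lowest in none. It was also the dish with the lowest mitochondrial share, 5.99% of TPM, where the other exposed dishes had 6.96% to 7.69%. Without exposed dish 2, the same 5 genes were still separated, and the median log2 difference was 0.06.

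Ratios between genes of one dish do not depend on the factor by which the dish was scaled. Of 14 sums, shares and ratios computed, 4 did not overlap between conditions, and no background share was computed for such quantities. The Cfl1 share and the cofilin family sum rest largely on Cfl1, which was selected on its difference. The actin sum and Tmsb4x per actin use Actb and Actg1, each already without overlap. They are therefore descriptions, not separate results. Cfl1 as a share of the cofilin family was 81.2%, 80.6%, 80.3% and 81.2% in control dishes and 81.5%, 81.9%, 81.3% and 81.6% in exposed dishes. The groups were apart, by less than the spread within either. Tmsb4x per actin, the TPM of Tmsb4x divided by that of Actb and Actg1, was 0.140, 0.141, 0.139 and 0.139 in control dishes and 0.134, 0.124, 0.129 and 0.134 in exposed dishes, all lower. The other 2 were sums, which do depend on scaling: both actins together went from 4546 ± 21 to 4844 ± 146 TPM (SD, n = 4 each), and the cofilin family from 2660 ± 29 to 2934 ± 66 TPM (SD, n = 4 each).

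The balance of cofilin to actin overlapped between conditions, with 0.585 ± 0.006 cofilin family transcripts per actin transcript in the controls (SD, n = 4) and 0.606 ± 0.017 after exposure (SD, n = 4). Exposed dish 2, at 0.586, lay among the control dishes. Pfn1 per actin was 0.380 ± 0.010 and 0.366 ± 0.007, and both thymosins per actin 0.568 ± 0.030 and 0.557 ± 0.013 (SD, n = 4 each). Actb as a share of both actins was 58.0% ± 0.3 and 58.8% ± 0.7 (SD, n = 4 each).

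**Figure D2:**
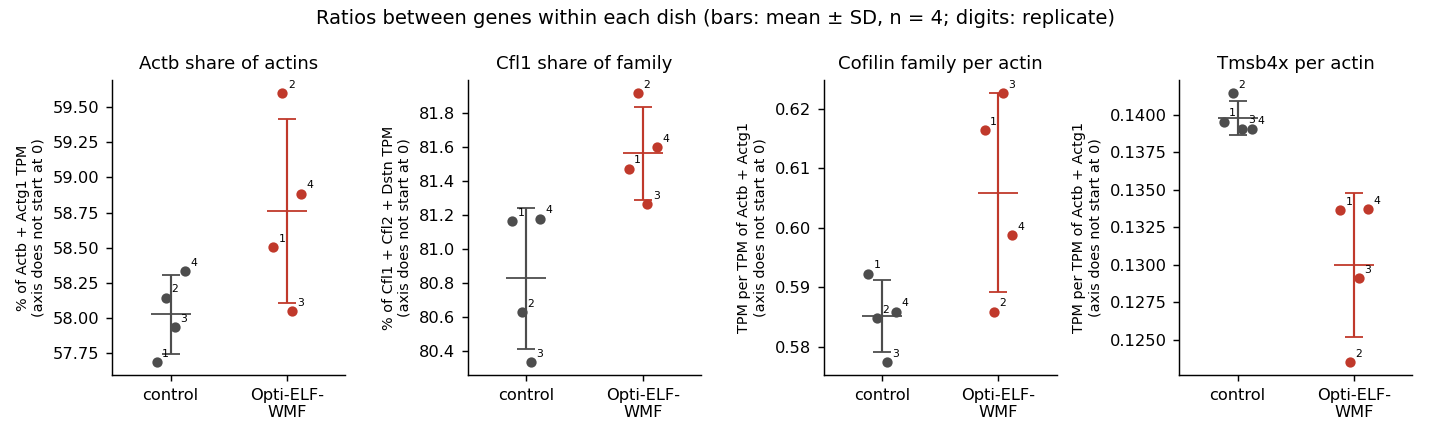
Ratios within each dish (points, numbered by replicate), with the mean and SD of 4 dishes per condition, as percentages in the first 2 panels and as TPM per TPM of Actb and Actg1 in the others. Conditions are apart for the Cfl1 share of its family and for Tmsb4x per actin, and overlap for the Actb share and for the cofilin family per actin. Vertical axes do not start at 0.

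Other ways of scaling the dishes gave smaller differences in the genes that were higher. Dividing each dish by its median ratio to the average dish (median-of-ratios scaling) moved the median of all tested genes from 0.03 to -0.001 and that of the 10 genes from 0.08 to 0.05. The Cfl1 difference became 0.12 (95% interval 0.06 to 0.19), Actb 0.08 (0.02 to 0.14), Wdr1 0.05 (0.01 to 0.10) and Tmsb4x -0.04 (-0.11 to 0.03). Dstn became 0.06 (-0.01 to 0.13) and Actg1 0.04 (-0.02 to 0.09), so both intervals then included 0. The genes that did not overlap were then 3, namely Cfl1, Actb and Wdr1, beside 3.8% of all tested genes with exposed dishes higher. That share was larger in abundant genes. It was 11.3% from 100 to 1000 TPM, where 1 of 4 genes of the set did so. At 1000 TPM or more it was 15.4%, where 2 of 5 did. When TPM was rescaled without genes of the mitochondrial genome, Cfl1 was again at 0.12, and the 3 genes that did not overlap were Cfl1, Actb and Actg1. The intervals of Wdr1 (-0.004 to 0.11) and Actg1 (-0.006 to 0.08) then included 0. Of all genes tested, 76.6% of those with an unadjusted p under 0.05 were higher as deposited, 47.1% after median-of-ratios scaling and 50% after rescaling without mitochondrial genes.

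**Figure D3:**
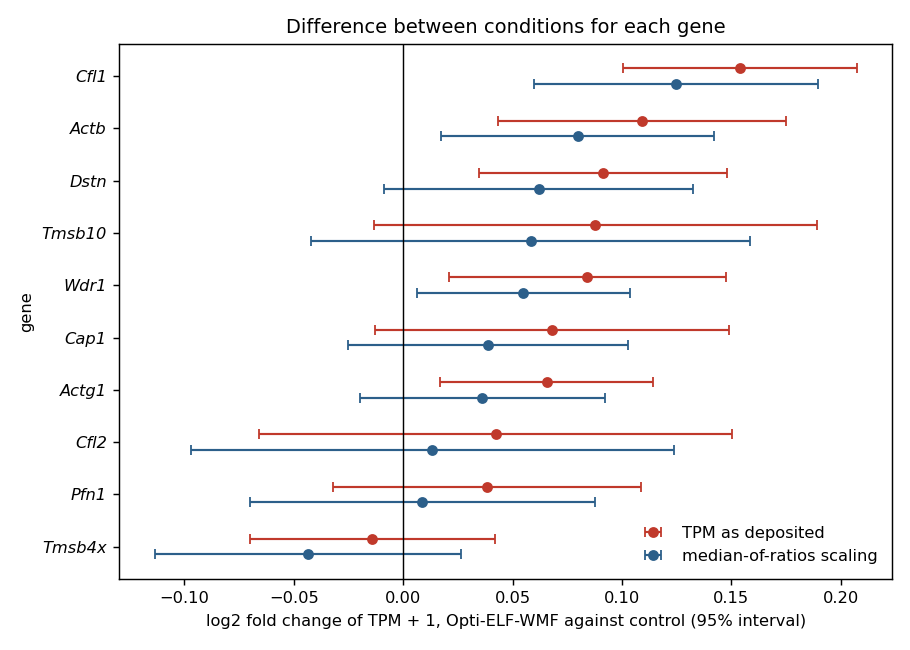
Log2 fold change of TPM + 1 for each gene, Opti-ELF-WMF against control, with 95% intervals from limma, as deposited (red) and after median-of-ratios scaling (blue). Cfl1 has the highest value under both, at 0.15 and 0.12, and Tmsb4x the lowest, at -0.01 and -0.04.

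Abundant genes as a class lay higher in exposed dishes, and 9 of the 10 genes have means above 100 TPM. The median log2 difference was -0.01 for the 3693 tested genes with a mean under 10 TPM, 0.03 for the 6801 genes from 10 to 100 TPM, 0.06 for the 1485 genes from 100 to 1000 TPM and 0.06 for the 143 genes of 1000 TPM or more. After median-of-ratios scaling these medians were -0.04, 0.00, 0.03 and 0.03. Of the 143 most abundant genes, 32.2% had all exposed dishes above all control dishes, and 3 of the 5 actin dynamics genes in that class did. After median-of-ratios scaling, these were 15.4% and 2 of 5. Both counts include Cfl1, which was selected on its difference, so the counts and its rank within the class are descriptions only. Within the class, 2 genes had a larger log2 difference than Cfl1, 10 had one larger than Actb, 29 larger than Tmsb10, 64 larger than Actg1 and 96 larger than Pfn1. Actg1 and Pfn1 thus sat in the middle and lower part of their abundance class.

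**Figure D4:**
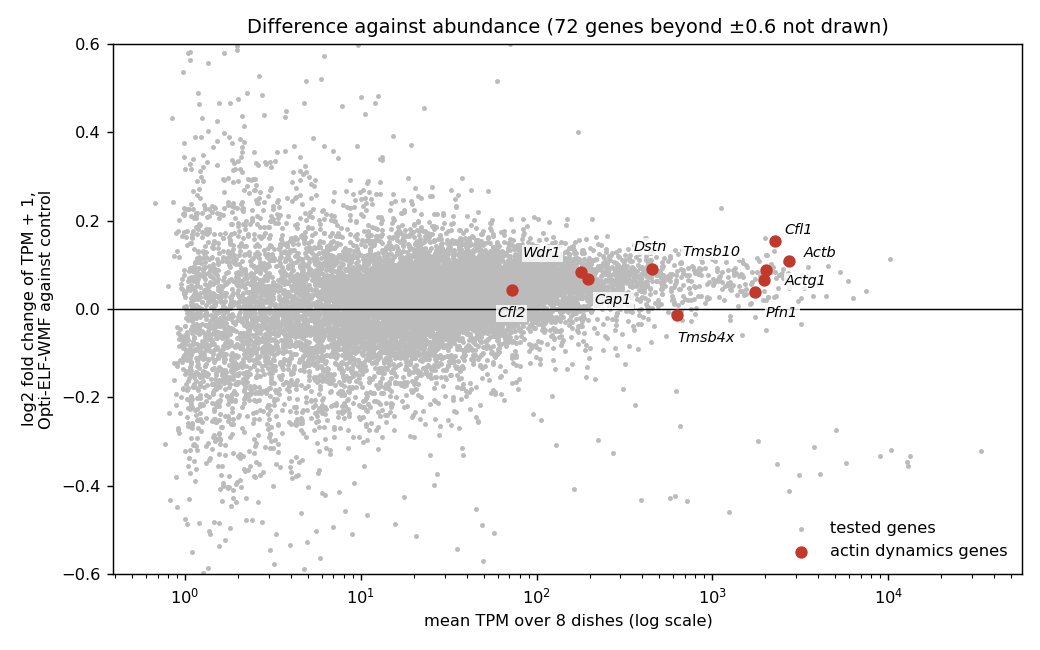
Log2 fold change of TPM + 1 against mean TPM over the 8 dishes (log scale) for the 12122 tested genes (grey) and the 10 actin dynamics genes (red), with 72 genes beyond 0.6 in size not drawn. Points at high abundance lie mostly above 0, apart from a group of abundant genes below 0, and Cfl1 stands near the top of its neighbours.

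The genes whose profile over the 8 dishes lay nearest to that of Cfl1, by the root mean square difference of centred log2(TPM + 1), were Rpf1 (0.015), Pcna (0.018), Nck1 (0.019), Ddx39 (0.019) and Anxa2 (0.020). Rpf1 is a ribosome assembly factor, Pcna the sliding clamp of DNA replication, Nck1 an adaptor that couples receptors to actin assembly, Ddx39 an RNA helicase and Anxa2 a phospholipid- and actin-binding annexin. Their log2 differences ran from 0.12 to 0.17. Among the other 9 genes of the set, the nearest to Cfl1 were Actb (0.041, the 250th of all tested genes) and Dstn (0.044, the 362nd), and the farthest was Tmsb4x (0.090, the 4573rd). The likeness is a description over 8 dishes that share the contrast by which Cfl1 was selected.

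The regulators and partners of these genes were read from 8 lists that hold 151 actin genes, of which 149 were in the tables and 116 passed the filter on low values. By limma, 0 had an adjusted p under 0.05, and by unadjusted p-value 21 were higher and 1 lower, beside 12% and 3.65% of all tested genes. After median-of-ratios scaling the unadjusted counts were 6 higher and 2 lower, beside 5.55% and 6.23% of all tested genes, so the share of higher genes was then near the background. Of the 116 genes, 40 had a mean of at least 100 TPM, and 17 of these were higher by unadjusted p-value as deposited, beside 38.2% of all genes of that abundance. In 18 genes all exposed dishes lay above all control dishes and in 1 below, beside 8.01% and 1.86% of tested genes. The median log2 difference over the 116 genes was 0.04, and 0.02 after median-of-ratios scaling.

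Of the 14 tested kinases, phosphatases and adaptors that act on cofilin, 3 were higher by unadjusted p-value, and 1 after median-of-ratios scaling. The shares of all tested genes were 12% and 5.55%. Of the 3 with at least 100 TPM, 2 were higher, beside 38.2% of all genes of that abundance. Pak1, which activates LIM kinase, held 28.1 ± 0.8 TPM in control and 30.6 ± 1.1 TPM in exposed dishes (SD, n = 4 each), a log2 difference of 0.12 with an adjusted p of 0.177 by limma. Ywhaz, an adaptor that binds phosphoserine, held 507 ± 4 and 529 ± 11 TPM (SD, n = 4 each), a difference of 0.06 with an adjusted p of 0.223 by limma. Both were barely apart: the closest control and exposed dishes were 28.95 and 29.01 TPM for Pak1 and 512.2 and 512.29 TPM for Ywhaz. The third, Cib1, which was named after its values were seen, overlapped between conditions. Limk2 and Ssh3 are named for their roles, outside the rule for named genes, as the most abundant LIM kinase and Slingshot phosphatase. Limk2 ran from 24.1 to 26.9 TPM in control dishes and from 21.6 to 25.6 TPM in exposed dishes. Ssh3 ran from 50.1 to 54.0 TPM and from 43.4 to 55.3 TPM, and both overlapped.

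In the Arp2/3 complex and its activators, which nucleate branched filaments, 6 of 20 tested genes were higher and 0 lower by unadjusted p-value. Beside this stood 12% and 3.65% of all tested genes. The median log2 difference of the list was 0.06. Of the 10 with at least 100 TPM, 5 were higher, beside the 38.2% of all genes of that abundance. After median-of-ratios scaling, 1 of the 20 was higher, beside 5.55% of all tested genes, and the median was 0.03. Arpc2, a core subunit, held 546 ± 6 TPM in control and 574 ± 9 TPM in exposed dishes (SD, n = 4 each, log2 difference 0.07, adjusted p = 0.160 by limma). Cyfip1 of the WAVE regulatory complex differed by 0.09 and cortactin (Cttn), which stabilises branches, by 0.07. Of 13 formins and other nucleators 1 was higher by unadjusted p-value, Fmnl3 (0.10, adjusted p = 0.232 by limma), beside 12% of all tested genes. Among 18 helpers of monomer and filament turnover, the twinfilins, coronins and gelsolin family included, 0 passed in either direction by unadjusted p-value. All tested genes had 12% higher and 3.65% lower. The median difference of the helpers was 0.04.

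Filament crosslinkers and tropomyosins had 8 of 21 tested genes higher and 0 lower by unadjusted p-value, or 3 higher after median-of-ratios scaling. Of all tested genes, 12% were higher and 3.65% lower as deposited, and 5.55% were higher after that scaling. Those with at least 100 TPM were 14, of which 7 were higher, beside the same 38.2%. Moesin (Msn) and ezrin (Ezr), which tie filaments to the plasma membrane, differed by 0.10 each, with adjusted p of 0.122 and 0.147 by limma. The tropomyosin Tpm4, which coats filaments, held 506 ± 8 and 532 ± 3 TPM (SD, n = 4 each), a difference of 0.07. In non-muscle myosin II, the motor that contracts filaments, 3 of 8 were higher by unadjusted p-value, or 1 after median-of-ratios scaling. The shares of all tested genes were 12% and 5.55%. All 3 were among the 5 with at least 100 TPM, beside 38.2% of all genes of that abundance. They included the light chain Myl12a (0.13, adjusted p = 0.140 by limma) and the heavy chain Myh9 (0.09, adjusted p = 0.169 by limma). For Myh9 the closest control and exposed dishes were 196.57 and 196.9 TPM. Of 14 capping and elongation genes, 1 was lower by unadjusted p-value, beside 3.65% of all tested genes. This was Tmod4, a tropomodulin of muscle, at 1.43 ± 0.36 and 0.88 ± 0.12 TPM (SD, n = 4 each), near the filter on low values. It passed that filter through its control dishes, at 1.06 to 1.86 TPM, where exposed dishes ran from 0.76 to 1.02 TPM. Its lower level is therefore a description only. Serum response factor, its coactivators and related factors had 0 of 8 in either direction by unadjusted p-value, beside the same 12% and 3.65%. After median-of-ratios scaling 1 of them was lower, beside 6.23% of all tested genes. Srf itself, named for its role, ran from 23.4 to 26.9 TPM in control dishes and from 22.7 to 26.8 TPM in exposed dishes.

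**Figure D5:**
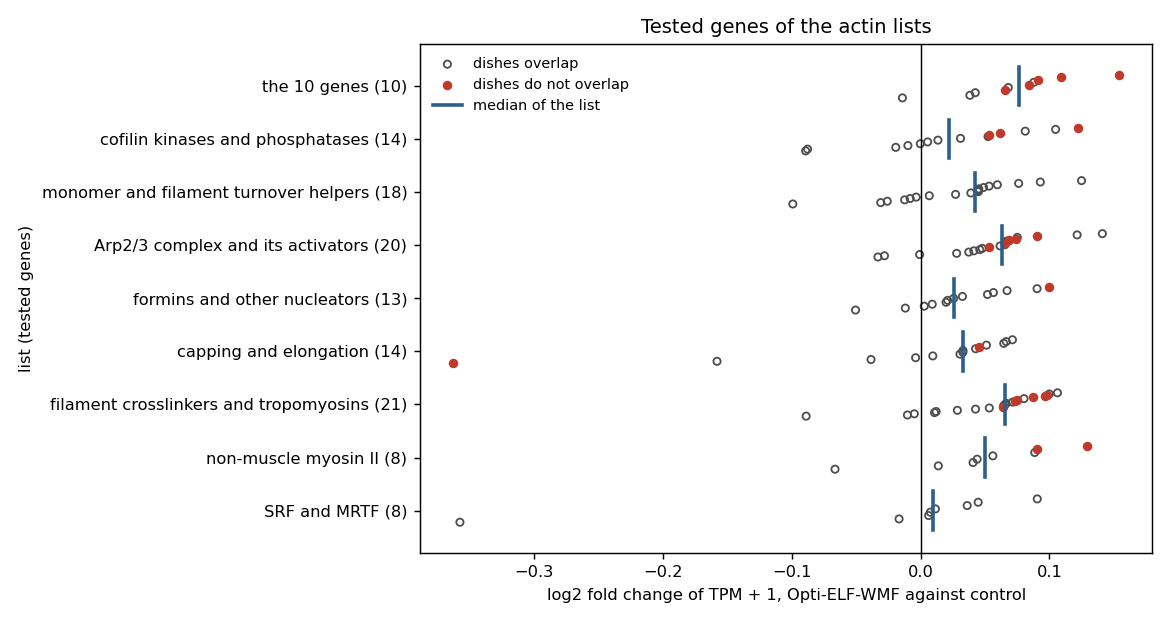
Log2 fold change of TPM + 1 for the tested genes of each actin list (points, filled where no exposed dish overlaps a control dish), with the list's median as a bar and the number of tested genes in brackets. Every median lies above 0, from 0.01 for the SRF list to 0.08 for the 10 genes, but after median-of-ratios scaling (not drawn) those of the SRF list, the cofilin regulators and the formins lie below 0.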

How the data were processed

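RNA-seq libraries were made by the authors with the TruSeq Stranded mRNA kit and read as 150 bp pairs. TPM, as deposited by the authors, covered 55401 genes in each dish. The submitters' processing notes list Trimmomatic 0.39, STAR 2.7.4a, RSEM 1.3.3 and mm10, and the annotation is not given in the sources used here. TPM keeps no depth, so the precision of a value was judged from the 4 dishes per group. Genes with at least 1 TPM in at least 4 samples (12122) were fitted as log2(TPM + 1) with limma 3.58.1 in R 4.3.3 (trended variances, Benjamini-Hochberg adjustment), after the code was tested on simulated data. Fold changes on this scale understate those of low genes, and exact zeros may be failed estimates. Groups came from the sample labels. Dishes may all have shared 1 batch of cells, so p-values measure only the spread between these dishes.

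GENCODE M21 on GRCm38 matched 55141 gene identifiers and gave positions and coding sequences, from the longest complete coding transcript. Copies were sought with blastn 2.17.0, and promoters came from RefSeq on GRCm38.p6. The set of 10 genes and all lists were chosen with earlier results of these data known. Named were the 10 genes, their paralogs and copies, the 5 genes nearest to Cfl1 and, per further list, up to 3 genes in each direction with the smallest unadjusted p under 0.05 and no overlap of dishes. Alternatives covered the pseudocount, the filter, scaling, length and GC content, a replicate block, leaving out each dish and, chosen after seeing the data, adding near-identical copies to their gene.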

Additional observations from a re-analysis of the deposited data

Results flagged for a closer look

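In groups of 4 dishes, a dish was singled out where its gap to the nearest other dish divided by the group's range exceeded Dixon's 95% critical value. Of 72 groups examined, 2 had such a dish, and chance gives about 1 in 20, or 3.6. In the Opti-ELF-WMF group, Pak1 had its lowest value in replicate 4, at 29.01 TPM, where the other dishes had 31.08 to 31.3 TPM. In the control group, Tmsb4x as a share of Tmsb4x and Tmsb10 was lowest in replicate 4, at 22.712%, where the other dishes had 25.1% to 25.4%. Tmsb10 was highest of all 8 dishes in that replicate, at 2139 TPM. The cause was not tested for either.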

How the results depend on the processing

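The median log2 difference of the 10 genes (0.08 as deposited) was 0.047 under median-of-ratios scaling, 0.042 under upper-quartile scaling, 0.046 without mitochondrial genes and 0.047 after correction for length and GC content. The 5 genes without overlap became 3, 3, 3 and 4. The 22 of 116 genes of the wider lists with an unadjusted p under 0.05 became 8, 8, 9 and 15. Over all tested genes, the 1894 of 12122 with such a p became 1428, 1389, 1377 and 1640 (the last of 12117). The higher share of all genes with an unadjusted p under 0.05 (76.6%) became 47.1%, 42.3%, 50% and 54.5%. Genes with an adjusted p under 0.05 by limma were 1 in place of 0 under median-of-ratios, upper-quartile and length and GC settings and with at least 1 TPM required in every sample, and none of these was among the 10. Cfl1 stayed at 0.12 or above under every alternative. The cause of these shifts was not tested.

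Leaving out 1 dish gave 0 to 2 genes with an adjusted p under 0.05 (2 without control replicate 2, 1 without control replicate 3), 1496 to 1963 with an unadjusted one, and 14 to 29 in the wider lists, with 14 without Opti-ELF-WMF replicate 2. The median of the 10 genes ran from 0.059 to 0.084 and the number without overlap from 5 to 6, with Tmsb10 added without control replicate 4 and Cap1 added without Opti-ELF-WMF replicate 1. Tmsb10 ran from 0.065 to 0.13, highest without control replicate 4, and Cfl2 from 0.014 to 0.083, highest without Opti-ELF-WMF replicate 4. Tmsb4x ran from -0.030 to 0.0015, changing sign without Opti-ELF-WMF replicate 3. Deviations of same-numbered dishes correlated at -0.035, -0.042, 0.00037 and 0.026. Such small values cannot decide whether same-numbered dishes were handled together, which was not tested. With a replicate block the unadjusted count was 1889, that of the wider lists 26 and that of genes without overlap 5. The block changed the Tmsb10 interval from -0.01 to 0.19 into 0.002 to 0.17. Under the block, no other interval of the 10 genes came to exclude or include 0. With 1 dish left out, some intervals also came to exclude 0. That of Cap1 was 0.03 to 0.17 without Opti-ELF-WMF replicate 1. That of Tmsb10 was 0.06 to 0.21 without control replicate 4 and 0.003 to 0.22 without Opti-ELF-WMF replicate 3. The pseudocount, the other filters and adding near-identical copies changed no direction. With genes above 0 TPM in any sample fitted, the Cfl1 interval widened to 0.09 to 0.22. Depth is unknown, which limits all low values, such as those of the paralogs.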
